A study of Mus musculus with 18 samples.

Results

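The comparison described here is that of infarcted left ventricle at 72 h against infarcted left ventricle at 24 h after coronary ligation, with 3 mice at each time, 6 of the 18 mice of the study. The members are the genes with an FPKM (read fragments scaled by transcript length and by the mapped fragments of the library) of at least 1 in at least 1 of these 6 mice, 13028 of the 24419 symbols in the table, while 11391 symbols stayed below 1 in all 6 mice and 5631 of those were at 0 in all 6. All animals were C57BL/6 mice aged 8 weeks, male according to the methods of the study, and were put under sodium pentobarbital anaesthesia. In the 24 h and 72 h groups the left anterior descending coronary artery was tied off close to its origin and the infarcted tissue was taken 24 h or 72 h later. The other groups of the study are a control group, called sham in the text of the study, and mice taken 10 min, 1 h and 6 h after ligation. The control group is given below as a reference level only. Each value comes from 1 mouse, all groups are of the same strain and age, and the model is that of an artery that stays closed. The labels give the mice as replicates of a time, so that the p-values set the difference between the times against the spread between these animals. Anything else that the mice of a time share cannot be told apart from time.

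In the days after a coronary artery closes, the dead muscle is first entered by neutrophils and monocytes, which release cytokines and remove debris. Macrophages then take up dying cells and neutrophils, while fibroblasts divide, become contractile myofibroblasts and lay down the collagen of the scar. Cardiomyocytes that survive at the border live on fatty acids through their mitochondria and carry the mechanical load of the ventricle.

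FPKM summed to between 542418 and 588965 per mouse. The 10 most abundant genes held 10.4% to 11.8% of that sum at 24 h and 6.82% to 7.99% at 72 h. The depth of the libraries relative to the first 24 h mouse, estimated from steps between the lowest FPKM, was 1.0, 1.106 and 0.771 at 24 h and 1.161, 1.185 and 1.106 at 72 h. The third 24 h mouse stood apart, at a root mean square distance of 0.473 on the log2 scale from the mean of the other 2 mice of its group, against 0.321 and 0.355 for those mice and 0.200 to 0.236 within the 72 h group. It also had the lowest estimated depth. The spread between mice was wider at 24 h, with a median SD of 0.186 on the log2(FPKM + 1) scale against 0.113 at 72 h. Below, the values of a gene are always given in the order of mice 1, 2 and 3. The log2 change of a gene, the log2 fold change of the plots, is its mean of log2(FPKM + 1) at 72 h less that at 24 h. It is smaller than the true change where FPKM is low. Its SE and two-sided adjusted p come from limma over all 13028 genes. An exact permutation test of 3 mice against 3 cannot give a p below 0.1.

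Between 24 h and 72 h a large part of the transcriptome moved. With an adjusted p under 0.05, 5758 genes were called (44.2% of those tested). Of these, 3964 genes were higher at 72 h (30.4% of those tested) and 1794 were lower (13.8%). With a ratio of mean FPKM over 2 as well, 2019 were higher (15.5%) and 397 lower (3.05%). Of the 2019, 2006 were called the same way when the third 24 h mouse was left out, as were 394 of the 397. Over all the fits that each left out 1 mouse, 1823 of the 2019 and 345 of the 397 always kept their call. Without the ratio, 2679 of the 3964 and 986 of the 1794 always kept it. The groups did not overlap for 4946 genes that lay higher in all 3 mice at 72 h (38.0%) and for 2508 that lay lower (19.3%). In all, 756 genes had passed the filter only through a 72 h mouse, 586 of which are among the 3964, and 263 only through a 24 h mouse, 50 of which are among the 1794. Of the 756, 77.5% were thus called higher, and of the 12009 genes that reached 1 FPKM at both times 28.1% were higher and 14.5% lower. The gene lists below held at most 4 members that passed only through a 72 h mouse, except for the G2 and mitosis list. The split depended on the scaling. Higher genes were 68.8% of all called genes, but 51.7% after median-of-ratios scaling, 44.8% after quantile normalization and 75.4% with the same FPKM sum in each mouse. Among called genes with a ratio over 2 they were 83.6%, 67.7%, 57.6% and 87.7% in the same order. The median log2 change of all genes was 0.13, which median-of-ratios scaling moved by -0.157 and quantile normalization by -0.222, so the changes below are read against that level. Each library holds RNA of whole tissue, in which fewer cells of a type and less RNA per cell cannot be told apart, here and in every group below. Of the 2019 higher genes 1962 remained called after median-of-ratios scaling and 1711 after quantile normalization, and all 397 lower genes remained called after both.

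**Figure D1:**
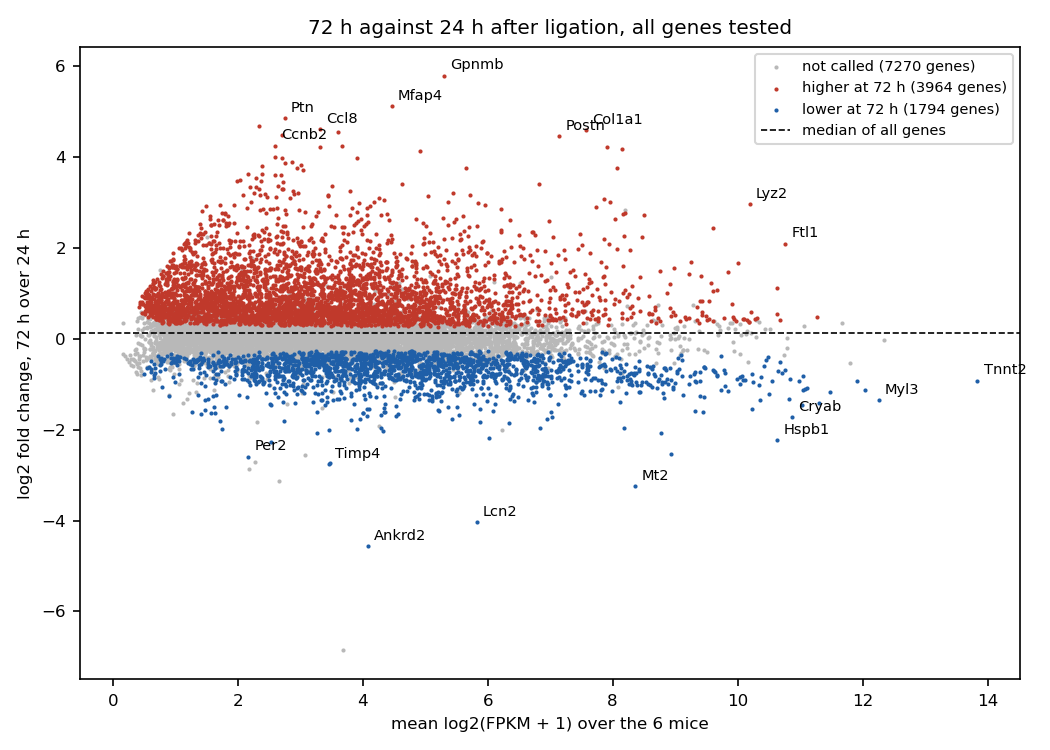
Each point is 1 of the 13028 genes tested, with its mean log2(FPKM + 1) over the 6 mice on the x axis and its log2 change from 24 h to 72 h on the y axis. Red points are the 3964 genes higher at 72 h, blue points the 1794 lower (adjusted p under 0.05), and the dashed line marks the median of 0.13. Gpnmb is the highest point, and the most abundant genes at the right, among them Tnnt2 and Myl3, lie below the line.

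The largest rises belonged to genes of scar matrix, macrophages and dividing cells. Gpnmb (chr6:49036546-49070929 in mm10), a transmembrane glycoprotein of lysosome-rich macrophages, had 3.38, 6.13 and 3.74 FPKM at 24 h and 262, 276 and 345 FPKM at 72 h, all 3 mice at 72 h far above all 3 at 24 h (log2 change 5.79 ± 0.20 SE, adjusted p = 1.68e-05). It had 0.897 ± 0.156 FPKM in the control group (SD, n = 3 mice). Mfap4, a glycoprotein of elastic microfibrils, had 2.44, 4.53 and 1.72 FPKM at 24 h and 126, 109 and 158 FPKM at 72 h (log2 change 5.13 ± 0.26 SE, adjusted p = 3.82e-05), although its exons overlap those of Mapk7 and reads of the 2 genes cannot be told apart unless strand was used. Ptn, the heparin-binding growth factor pleiotrophin, had 0.232, 0.507 and 0.0528 FPKM at 24 h and 24.2, 27.9 and 63.9 FPKM at 72 h, and the third 72 h mouse was the highest (log2 change 4.85 ± 0.34 SE, adjusted p = 7.15e-05). Both genes were below their control means of 6.49 and 0.591 FPKM in all 3 mice at 24 h. Sprr2a2, a small proline-rich protein of epithelia, was listed at 0 in all 3 mice at 24 h and at 20.8, 28.5 and 25.8 FPKM at 72 h (adjusted p = 1.64e-05), but its reads are shared with the near-identical Sprr2a1. Ccl8, a monocyte chemokine, had 1.1, 1.58 and 0.496 FPKM at 24 h and 56.2, 37.5 and 52.7 FPKM at 72 h (log2 change 4.61 ± 0.23 SE, adjusted p = 3.65e-05). Ms4a7, a membrane protein of macrophages, had 1.08, 1.84 and 1.04 FPKM at 24 h and 40.7, 35.7 and 50.9 FPKM at 72 h (log2 change 4.23 ± 0.18 SE, adjusted p = 2.16e-05). For both, every 72 h mouse was far above every 24 h mouse. The other genes among the 15 largest rises were Col1a1, Sfrp2, Cthrc1, Postn, Ccnb2, Col14a1, Col1a2, Col3a1 and Sfrp1, which are described with their groups below.

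The largest falls came from muscle, acute phase, metal-binding and clock genes. Ankrd2 (chr19:42036000-42045110), an ankyrin repeat protein of the stretched sarcomere, had 56.7, 110.2 and 86.4 FPKM at 24 h and 2.73, 2.47 and 2.24 FPKM at 72 h (log2 change -4.57 ± 0.23 SE, adjusted p = 3.43e-05), against a control level of 0.795 ± 0.335 FPKM. Every 24 h mouse was far above every 72 h mouse, and the 72 h mice were still above the control mean. Lcn2, the iron-siderophore binding protein lipocalin 2, had 214, 121 and 456 FPKM at 24 h and 14.7, 13.7 and 10.9 FPKM at 72 h (log2 change -4.03 ± 0.42 SE, adjusted p = 0.00038), and the third 24 h mouse was the highest. Timp4, an inhibitor of matrix proteases that the heart expresses at rest, had 33.8, 24.3 and 25.5 FPKM at 24 h and 4.17, 2.38 and 3.28 FPKM at 72 h (log2 change -2.76 ± 0.19 SE, adjusted p = 6.42e-05), with a control level of 34.5 FPKM, and its exons overlap those of Syn2. Nmrk2, a muscle kinase of NAD synthesis whose exons overlap the antisense gene Atcayos, had 108, 158 and 152 FPKM at 24 h and 24.6, 29.2 and 35.9 FPKM at 72 h (log2 change -2.18 ± 0.19 SE, adjusted p = 0.000173). Klhl40, which keeps thin filament proteins stable, had 20.8, 19.3 and 23.3 FPKM at 24 h and 4.34, 4.4 and 4.68 FPKM at 72 h (log2 change -2.01 ± 0.11 SE, adjusted p = 3.82e-05). Car4, a membrane-bound carbonic anhydrase, had 21.1, 12.1 and 25.4 FPKM at 24 h and 4, 3.36 and 3.68 FPKM at 72 h (log2 change -2.08 ± 0.24 SE, adjusted p = 0.000648). In these 3 genes no 72 h mouse came near the lowest 24 h mouse. Prg4, the lubricating proteoglycan lubricin, had 20.1, 16.5 and 71.3 FPKM at 24 h and 5.62, 10.00 and 4.94 FPKM at 72 h (log2 change -1.98 ± 0.52 SE, adjusted p = 0.0185), with the third 24 h mouse far above the others, and its adjusted p was 0.0667 when the third 72 h mouse was left out. Mt1, Mt2, Dbp, Per2, Zbtb16, Hspb1, Flnc and Lrg1 completed the 15 and follow with their groups.

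**Figure D2:**
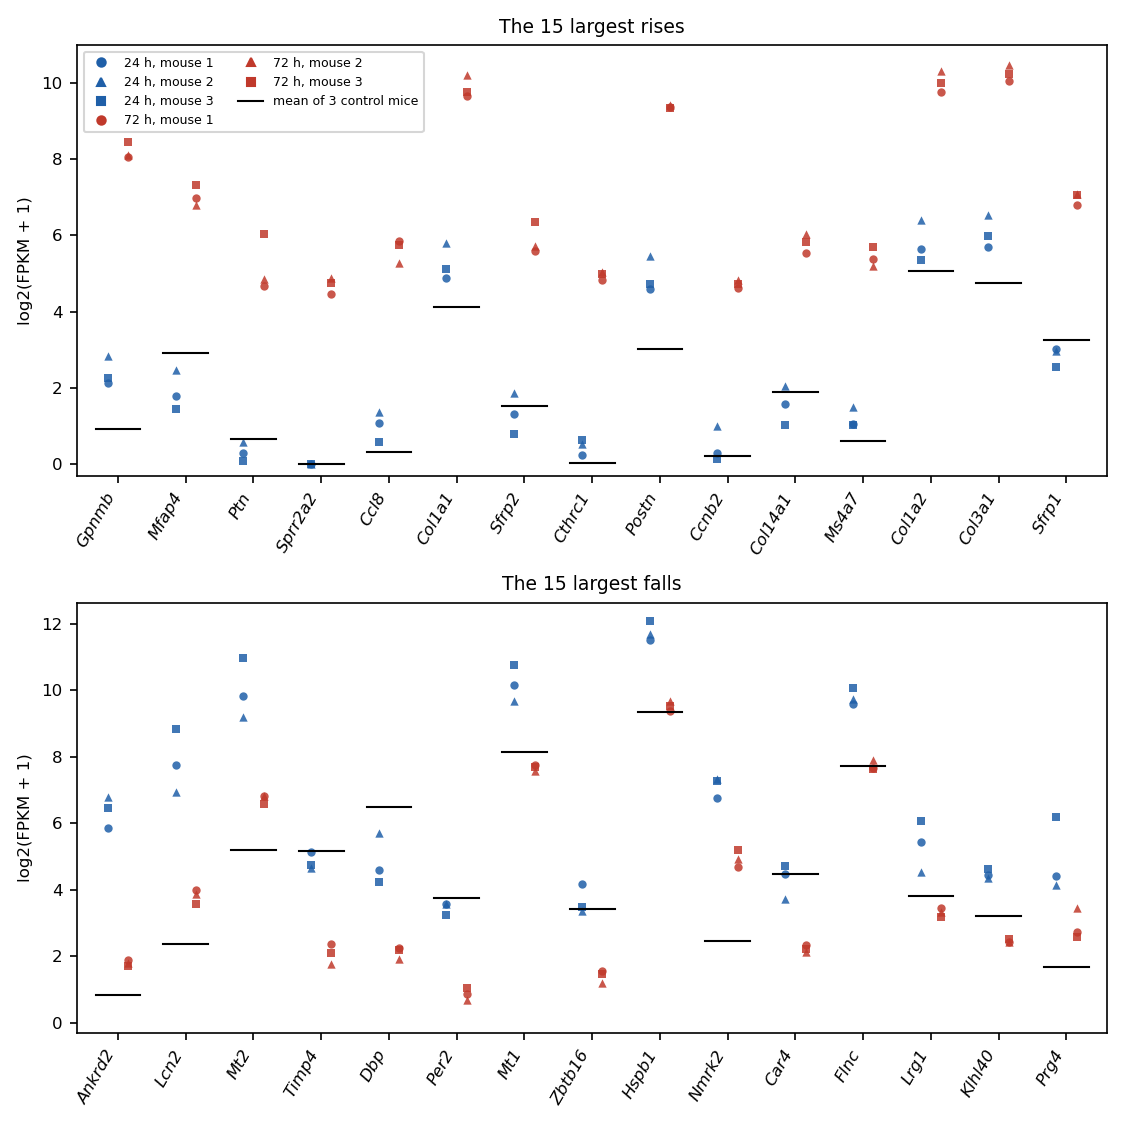
Points are log2(FPKM + 1) of single mice for the 15 largest rises (top) and the 15 largest falls (bottom), blue at 24 h and red at 72 h, with a marker shape for each mouse, and black bars are means of the 3 control mice. In all 30 genes the 3 mice of one time lie on one side of the 3 mice of the other, since the genes were chosen that way. Hspb1 and Flnc lie above the control bar at 24 h and close to it at 72 h, whereas Timp4, Dbp and Per2 lie far below it at 72 h.

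Genes of cell division rose together. All 39 genes of the G2 phase and mitosis were tested and all 39 were higher at 72 h, 38 of them with a ratio over 2, and their median log2 change was 2.77 against 0.13 over all genes. Of the 39, 24 entered the test only through a 72 h mouse, a route on which 77.5% of all genes were higher. The other 15 reached 1 FPKM at both times, where 28.1% of all genes were higher, and had a median of 3.3 against 0.11. Their summed level was 34.3, 58.1 and 34.9 FPKM at 24 h and 441, 584 and 502 FPKM at 72 h, against a mean of 35.4 FPKM in the control group. Mice 1 and 3 at 24 h were at about the control level, mouse 2 was somewhat higher, and all 3 mice at 72 h lay far above. Ccnb2, cyclin B2, which drives entry into mitosis, had 0.222, 0.985 and 0.102 FPKM at 24 h and 23.5, 27.6 and 25.4 FPKM at 72 h (log2 change 4.25 ± 0.22 SE, adjusted p = 3.82e-05). Ube2c, the ubiquitin-conjugating enzyme that ends mitosis, had 0.503, 1.29 and 0.278 FPKM at 24 h and 22.1, 26.5 and 26.1 FPKM at 72 h (log2 change 3.98 ± 0.21 SE, adjusted p = 3.82e-05), with exons that overlap Tnnc2. Mki67, the nuclear proliferation antigen Ki-67, had 0.595, 1.71 and 0.56 FPKM at 24 h and 22, 32.2 and 28.3 FPKM at 72 h (log2 change 3.9 ± 0.24 SE, adjusted p = 4.92e-05). In each of these genes the second 24 h mouse was the highest of its group and still far below every 72 h mouse. Top2a, which untangles DNA in dividing cells, and Nusap1, a spindle protein, rose by log2 changes of 3.83 and 3.88. Cdk1, the kinase partner of the B cyclins, had 0.368, 1.13 and 0.228 FPKM at 24 h and 12.9, 16 and 14.9 FPKM at 72 h (log2 change 3.34 ± 0.21 SE, adjusted p = 5.11e-05). Cenpa, the centromeric histone variant, had the highest level of the list and its smallest change, with 14.7, 16.3 and 15.6 FPKM at 24 h and 32.2, 28.6 and 31.3 FPKM at 72 h (log2 change 0.94 ± 0.10 SE, adjusted p = 0.000356).

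The 33 genes of DNA replication were all tested and all higher (100%, against 30.4% of all genes), 27 with a ratio over 2. Their median log2 change was 1.31, and 3 passed the filter only through a 72 h mouse. Tk1, thymidine kinase 1, had 0.8, 3.46 and 1.01 FPKM at 24 h and 15.2, 19.1 and 16.8 FPKM at 72 h (log2 change 2.83 ± 0.32 SE, adjusted p = 0.000565). Rrm2, a subunit of the enzyme that makes deoxyribonucleotides, had 0.573, 1.82 and 0.663 FPKM at 24 h and 6.88, 10.00 and 6.67 FPKM at 72 h (log2 change 2.17 ± 0.25 SE, adjusted p = 0.000603). In both the second 24 h mouse was again the highest of its group. Tyms, thymidylate synthase, had 1.19, 2.1 and 1.81 FPKM at 24 h and 7.08, 8.58 and 8.57 FPKM at 72 h (log2 change 1.76 ± 0.16 SE, adjusted p = 0.00018), and Mcm5 and Rrm1, of the replicative helicase and of deoxyribonucleotide synthesis, rose by log2 changes of 1.73 and 1.72. The count was 31 of 33 after median-of-ratios scaling and after quantile normalization.

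Promoters of G2 and mitosis genes are known to carry CCAAT boxes, bound by the factor NF-Y, and the cell cycle homology region TTTGAA, bound by the complexes that silence them in resting cells. The windows below are the 160 bases before the start site of RefSeq promoters on GRCm38.p6 for 4 members that drive or end mitosis, shown because the list rose as a whole, with CCAAT or TTTGAA, on either strand, in capitals.
Ccnb2, chr9:70421555-70421714, minus strand: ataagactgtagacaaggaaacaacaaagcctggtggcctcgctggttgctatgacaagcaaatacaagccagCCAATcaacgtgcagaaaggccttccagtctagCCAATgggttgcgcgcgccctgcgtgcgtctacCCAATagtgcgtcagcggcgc
Cdk1, chr10:69352913-69353072, minus strand: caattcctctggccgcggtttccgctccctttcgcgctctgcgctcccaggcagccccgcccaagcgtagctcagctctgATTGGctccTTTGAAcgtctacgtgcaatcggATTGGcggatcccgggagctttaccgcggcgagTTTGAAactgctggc
Ube2c, chr2:164769769-164769928, plus strand: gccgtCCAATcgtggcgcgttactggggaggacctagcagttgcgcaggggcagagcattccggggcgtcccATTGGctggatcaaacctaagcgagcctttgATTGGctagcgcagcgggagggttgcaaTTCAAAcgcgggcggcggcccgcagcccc
Ccnb1, chr13:100786487-100786646, minus strand: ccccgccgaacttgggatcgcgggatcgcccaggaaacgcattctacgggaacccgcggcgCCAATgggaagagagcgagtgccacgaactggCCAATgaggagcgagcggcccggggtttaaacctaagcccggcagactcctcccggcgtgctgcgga
Ccnb1, cyclin B1, had 0.145, 0.676 and 0.0627 FPKM at 24 h and 12.8, 17.5 and 14.2 FPKM at 72 h (log2 change 3.63 ± 0.20 SE, adjusted p = 3.82e-05), as low at 24 h and as clearly apart at 72 h as the other 3 genes. Over 250 bases before the start site, 25 of 34 promoters of 32 list members held CCAAT (73.5%), against 33.8% of all 32851 promoters of the table, and 17 held it more than once (50.0% against 10.1%). TTTGAA was in 12 of the 34 (35.3% against 16%), and both motifs were in 11 (32.4% against 5.55%). CCAAT and TTTGAA can share at most 1 base at their ends, and both strands were searched. The other 7 tested members of the list had no promoter in the table. These are matches of letters, not measured binding.

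Collagen genes rose to some of the highest levels in the tissue. Of 24 collagen genes listed, 23 were tested and 20 were higher at 72 h (87%, against 30.4% of all genes), all 20 with a ratio over 2. None was lower, and the median log2 change was 2.21. Of the 23, 4 passed the filter only through a 72 h mouse. The summed level of the collagen genes was 474, 672 and 629.5 FPKM at 24 h and 3901, 5511 and 4212 FPKM at 72 h, with 297 FPKM in the control group. Col1a1 (chr11:94936224-94953042), the main chain of fibrillar collagen I, had 28.5, 54.9 and 33.8 FPKM at 24 h and 806, 1178 and 862 FPKM at 72 h (log2 change 4.6 ± 0.25 SE, adjusted p = 3.82e-05). Col3a1, of the pliable collagen III of early scar, had 50.5, 91.2 and 61.8 FPKM at 24 h and 1045, 1399 and 1188 FPKM at 72 h (log2 change 4.17 ± 0.22 SE, adjusted p = 3.82e-05). Col1a2, the other chain of collagen I, had 48.5, 83.3 and 40.02 FPKM at 24 h and 859, 1264 and 1012 FPKM at 72 h (log2 change 4.22 ± 0.27 SE, adjusted p = 5.39e-05). The second mouse was the highest at both times in all 3 genes, and the groups lay far apart. Col14a1, which binds along collagen fibrils, rose from 1.97, 3.1 and 1.04 to 45.3, 64.7 and 55.7 FPKM (log2 change 4.25 ± 0.26 SE, adjusted p = 4.61e-05), and Col5a2, of the collagen that starts fibrils, had a log2 change of 3.16. The 3 collagens that did not pass the test were the basement membrane chains Col4a1, Col4a2 and Col4a5, at 0.62, 0.32 and 0.12 on the log2 scale, with adjusted p between 0.0632 and 0.467.

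Enzymes that hydroxylate, cut and crosslink collagen moved the same way in 19 of 23 genes (82.6%, against 30.4% of all genes). Of these rises 14 had a ratio over 2, and the median of the list was 1.21. P4ha3, a prolyl hydroxylase subunit, had 0.724, 0.389 and 0.473 FPKM at 24 h and 20.3, 25.2 and 24.8 FPKM at 72 h (log2 change 4.0 ± 0.13 SE, adjusted p = 1.68e-05), below 1 FPKM in every 24 h mouse. Lox, the lysyl oxidase that starts crosslinking, had 9, 11.9 and 21.4 FPKM at 24 h and 118, 157 and 124 FPKM at 72 h (log2 change 3.22 ± 0.28 SE, adjusted p = 0.000173), and its relatives Loxl3 and Loxl2 rose by log2 changes of 2.98 and 2.33. Adamts2, which trims procollagen, had a log2 change of 2.36. Serpinh1, the collagen chaperone HSP47 and the most abundant gene of the list, had 180.0, 495 and 387 FPKM at 24 h and 482, 642 and 519 FPKM at 72 h (log2 change 0.74 ± 0.35 SE, adjusted p = 0.124), and its groups overlapped. The other 2 that did not pass were Loxl4 (log2 change 0.41, adjusted p = 0.0789) and P4ha2 (0.13, adjusted p = 0.312). Tgm2, a transglutaminase, was the only member that fell, at a log2 change of -0.75.

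Among 27 matricellular and other matrix genes 21 were higher (77.8%, against 30.4% of all genes) and 1 lower (3.7%, against 13.8%). All 22 had a ratio over 2, and the median of the list was 1.89. Of the 27, 3 passed the filter only through a 72 h mouse. Postn, periostin, secreted by activated fibroblasts, had 22.9, 43.1 and 25.2 FPKM at 24 h and 654, 683 and 651 FPKM at 72 h (log2 change 4.46 ± 0.22 SE, adjusted p = 3.54e-05), and the 3 mice at 72 h were within 5% of each other. Cthrc1, a secreted protein of fibroblasts in healing tissue, had 0.186, 0.434 and 0.56 FPKM at 24 h and 27.3, 32 and 30.8 FPKM at 72 h (log2 change 4.48 ± 0.13 SE, adjusted p = 1.64e-05). Both were at low level in the control group, 7.09 and 0.0192 FPKM. Cilp, Ltbp2 and Comp, which the study uses as fibroblast markers, all rose. Cilp, a cartilage-type matrix protein, had 1.92, 6.11 and 1.35 FPKM at 24 h and 35.4, 33.8 and 26.4 FPKM at 72 h (log2 change 3.16 ± 0.38 SE, adjusted p = 0.000736). Ltbp2, a binding partner of elastic fibres, had 3.31, 6.06 and 7.14 FPKM at 24 h and 43.5, 59.1 and 39.7 FPKM at 72 h (log2 change 2.93 ± 0.26 SE, adjusted p = 0.00017). Comp, an organiser of collagen fibrils, had 0.277, 0.105 and 0.159 FPKM at 24 h and 4.83, 7.49 and 7 FPKM at 72 h (log2 change 2.64 ± 0.16 SE, adjusted p = 4.92e-05). Thbs2, an inhibitor of vessel growth, rose by a log2 change of 3.05, and Fstl3, an activin inhibitor, was the 1 that fell, at a log2 change of -1.09. Fstl1, a secreted glycoprotein and the most abundant of the list, had 92.8, 119 and 103 FPKM at 24 h and 616, 714 and 650.1 FPKM at 72 h (log2 change 2.65 ± 0.13 SE, adjusted p = 3.3e-05). The 5 that did not pass were Thbs4 (log2 change 1.1), Tgfbi (0.59), Thbs1 (0.46), Cyr61 (-0.28) and Ctgf (-0.14), with adjusted p from 0.106 to 0.635. Ctgf, connective tissue growth factor, already had 212, 289 and 325 FPKM at 24 h, against 27.8 in the control group, and had 225, 289.5 and 229 at 72 h.

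Fibroblast markers, proteases and signalling genes were more mixed. Of 10 fibroblast markers 7 were higher (70%, against 30.4% of all genes), Mfap4 among them, and none lower. Dpt, the matrix protein dermatopontin, had 118, 128 and 82.3 FPKM at 24 h and 538, 427 and 538 FPKM at 72 h (log2 change 2.2 ± 0.19 SE, adjusted p = 0.000154). Tcf21, a transcription factor of cardiac fibroblasts, had 3.09, 3.21 and 3.5 FPKM at 24 h and 11.2, 12.1 and 13.7 FPKM at 72 h (log2 change 1.64 ± 0.11 SE, adjusted p = 6.31e-05). Pdgfra, the receptor that marks resting fibroblasts, had 46.1, 53.2 and 69.1 FPKM at 24 h and 70.2, 84.4 and 76.1 FPKM at 72 h (log2 change 0.46 ± 0.16 SE, adjusted p = 0.0495), and its call was lost in 9 of the 16 other fits, with adjusted p of up to 0.155. Cd248, endosialin, had a log2 change of 1.74, and Lamc1, a laminin chain and the most abundant, one of 0.83. Gsn, Scara5 and Clec3b did not pass. Among 28 matrix proteases and their inhibitors 14 were higher (50.0%, against 30.4% of all genes) and 3 lower (10.7%, against 13.8%). Their median was 0.78. Adamts12, an aggrecanase-like protease, Mmp12, the macrophage elastase, Mmp23 and Mmp14, 2 metalloproteases of the membrane, rose by log2 changes of 2.73, 2.49, 2.49 and 2.47. Timp4, Adamts1 and Timp3 fell, with log2 changes of -2.76, -1.26 and -1.07.

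Contractile and activation genes of myofibroblasts were higher in 16 of 22 (72.7%, against 30.4% of all genes) and lower in none, with a median of 1.06. Acta2, smooth muscle actin, the defining protein of the myofibroblast, had 62, 81.3 and 73.6 FPKM at 24 h and 194, 263 and 238 FPKM at 72 h (log2 change 1.66 ± 0.15 SE, adjusted p = 0.000221). Tagln, an actin-binding protein of the same cells, had 70.1, 92.4 and 99.7 FPKM at 24 h and 311, 395 and 338 FPKM at 72 h (log2 change 1.99 ± 0.16 SE, adjusted p = 0.000127), with exons that overlap Pcsk7. All 3 mice at 72 h were above all 3 at 24 h in both, and the 24 h values lay around the control means of 71.3 and 74.9 FPKM. Cdh11, the cadherin of mesenchymal cells, and Fap, the fibroblast activation protease, were under 1 FPKM in every 24 h mouse, and at 72 h Cdh11 had 6.79, 6.77 and 6.69 FPKM and Fap 4.68, 5.6 and 6.7, with log2 changes of 2.18 and 2.01. Meox1, a transcription factor of activated fibroblasts, had 9.62, 13.3 and 11.5 FPKM at 24 h and 43.9, 44.6 and 37.5 FPKM at 72 h (log2 change 1.8 ± 0.14 SE, adjusted p = 9.75e-05). Vim, vimentin, the most abundant of the list, had a log2 change of 1.39. The 6 that did not pass were the smooth muscle genes Myh11 (log2 change -0.55), Lmod1 (-0.33), Cnn1 (0.69) and Smtn (0.35), with adjusted p between 0.0687 and 0.337, and Myh9 (0.74) and Actn1 (0.57), with adjusted p of 0.0552 and 0.0698. The CArG box, the site of serum response factor, was in 2 of 18 promoters of 17 list members (11.1%), against 1.47% of all promoters. Those were the promoters of Myl9 and Cnn2. Only exact matches to CC, 6 bases of A or T and GG were counted, over 250 bases before the start site. Near matches, such as ccctatatgg before Acta2, were not counted.

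Secreted inhibitors of WNT signalling were among the largest rises of all. Those of the Sfrp family hold the WNT ligands away from their Frizzled receptors. Of 24 WNT pathway genes 16 were tested, 11 of them higher (68.8%, against 30.4% of all genes) and 1 lower (6.25%, against 13.8%). Their median was 0.84, and 2 passed the filter only through a 72 h mouse. Sfrp2 had 1.49, 2.63 and 0.723 FPKM at 24 h and 46.9, 51.2 and 81.1 FPKM at 72 h (log2 change 4.56 ± 0.30 SE, adjusted p = 5.85e-05). Sfrp1 had 7.16, 6.87 and 4.86 FPKM at 24 h and 109, 135 and 133 FPKM at 72 h (log2 change 4.13 ± 0.16 SE, adjusted p = 1.68e-05). Dkk3 had 0.996, 1.04 and 0.419 FPKM at 24 h and 15.3, 15.8 and 15.1 FPKM at 72 h (log2 change 3.19 ± 0.16 SE, adjusted p = 3.3e-05). Frzb had 2.14, 2.83 and 3.88 FPKM at 24 h and 10.1, 12.7 and 10.1 FPKM at 72 h (log2 change 1.62 ± 0.18 SE, adjusted p = 0.000489). At 24 h Sfrp1 was below its control mean of 8.61 FPKM in every mouse. Nkd2, an inhibitor inside the cell, rose by a log2 change of 1.41, while Axin2, a target of the pathway that also inhibits it, fell by 0.63 on the log2 scale with an adjusted p of 0.0376, which reached 0.127 when 1 mouse was left out and 0.0511 with a replicate block. Those that did not pass were Fzd4 (log2 change -0.36), Wnt5a (0.34), Wnt9a (-0.16) and Wnt5b (0.08). In the TGF-beta, activin and BMP pathway 8 of 20 tested genes were higher (40.0%, against 30.4% of all genes) and 3 lower (15%, against 13.8%), of 25 in the table. The ligand Tgfb3 had 5.33, 10.04 and 5.22 FPKM at 24 h and 26.5, 28.3 and 31.8 FPKM at 72 h (log2 change 1.98 ± 0.23 SE, adjusted p = 0.000548), and the receptor Tgfbr1 had 4.78, 4.91 and 6.77 FPKM at 24 h and 13.9, 16.6 and 16.6 FPKM at 72 h (log2 change 1.38 ± 0.15 SE, adjusted p = 0.000402). Tgfbr2, the partner receptor, rose, at a log2 change of 0.92. Of the BMP target genes Id2 rose, at a log2 change of 1.25, with an adjusted p of up to 0.0603 when 1 mouse was left out, and Id1 fell by 0.95 on the log2 scale, from 61.1, 66.1 and 80.1 to 38.3, 35.7 and 31.7 FPKM (adjusted p = 0.00133). The list had 5 rises and 4 falls after median-of-ratios scaling, 4 rises without the first 24 h mouse, the second 72 h mouse or the third 72 h mouse, and 5 without the second 24 h mouse or the first 72 h mouse.

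Macrophage genes rose as well. Of 20 genes of resident macrophages and of the uptake of dying cells 16 were higher (80%, against 30.4% of all genes) and 1 lower (5%, against 13.8%). Of the rises 13 had a ratio over 2, and the median of the 20 genes was 1.72. Their summed level was 696, 752 and 784 FPKM at 24 h and 3657, 3069 and 3763 FPKM at 72 h. The complement chains C1qa, C1qb and C1qc, which tag dying cells, rose together. C1qb had 75.1, 100.1 and 65 FPKM at 24 h and 720.3, 557 and 757 FPKM at 72 h (log2 change 3.08 ± 0.19 SE, adjusted p = 4.91e-05), and the other chains had log2 changes of 2.77 and 2.9. Of the defining macrophage markers, Cd68, a lysosomal membrane protein, had 23.8, 24.7 and 32.5 FPKM at 24 h and 196, 189 and 213 FPKM at 72 h (log2 change 2.85 ± 0.14 SE, adjusted p = 3.3e-05). Adgre1, the antigen F4/80, had 2.61, 2.54 and 2.92 FPKM at 24 h and 23.2, 24 and 26.5 FPKM at 72 h (log2 change 2.79 ± 0.10 SE, adjusted p = 1.68e-05). Csf1r, the receptor for macrophage colony-stimulating factor, had 59.6, 70.7 and 101 FPKM at 24 h and 294, 262 and 327 FPKM at 72 h (log2 change 1.95 ± 0.20 SE, adjusted p = 0.00032). The 72 h mice of each marker were close to each other and well above every 24 h mouse. Lyve1, a hyaluronan receptor of resident macrophages and of lymphatic vessels, was the member that fell, at a log2 change of -0.84, a call lost in 6 of the 16 other fits, with adjusted p of up to 0.154. The 3 that did not pass were F13a1 (log2 change 0.61, adjusted p = 0.128) and the resident markers Timd4 and Cd163, at -0.03 and -0.02.

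Genes of lipid handling in macrophages were higher in 15 of 21 (71.4%, against 30.4% of all genes) and lower in 2 (9.52%, against 13.8%). Their median was 1.96. Trem2, a lipid-sensing receptor, had 10.1, 15.6 and 12.8 FPKM at 24 h and 178, 162 and 216 FPKM at 72 h (log2 change 3.76 ± 0.17 SE, adjusted p = 3.14e-05). Apoe, apolipoprotein E, had 73.3, 70.2 and 71.9 FPKM at 24 h and 984, 763 and 1281 FPKM at 72 h (log2 change 3.76 ± 0.18 SE, adjusted p = 3.3e-05). Apoe at 24 h was below its control mean of 91.6 FPKM in all 3 mice. Fabp5, a fatty acid carrier, and Lgals3, galectin-3, rose by log2 changes of 2.75 and 2.72. Fabp4, the fatty acid carrier of capillary endothelium and fat and the most abundant of the list, fell instead, with 823, 933 and 861 FPKM at 24 h and 609.7, 528 and 558 FPKM at 72 h (log2 change -0.63 ± 0.11 SE, adjusted p = 0.00414), as did Lpl, lipoprotein lipase, at a log2 change of -1.23. Plin2 (log2 change 1.0), Syngr1 (0.51), Cd9 (0.46) and Nr1h3 (-0.08) did not pass, with adjusted p of 0.0908, 0.0721, 0.251 and 0.617. The 25 lysosomal genes held 22 that were higher (88%, against 30.4% of all genes), 20 with a ratio over 2. Lower was 1 (4%, against 13.8%), and the median was 1.61. Ctss, cathepsin S, had 74.4, 72.2 and 118 FPKM at 24 h and 649, 648 and 823 FPKM at 72 h (log2 change 3.01 ± 0.21 SE, adjusted p = 6.57e-05). Ctsk, a cathepsin that cuts collagen, had 3.87, 4.31 and 4.48 FPKM at 24 h and 33.3, 39.6 and 39.5 FPKM at 72 h (log2 change 2.88 ± 0.11 SE, adjusted p = 1.68e-05). Ctsb and Ctsd were among the 5 most abundant genes that rose with a ratio over 2. Ctsb had 317, 334 and 343 FPKM at 24 h and 1672, 1755 and 2029.6 FPKM at 72 h (log2 change 2.45 ± 0.12 SE, adjusted p = 3.3e-05). Ctsd had 608, 517 and 594 FPKM at 24 h and 1729, 1682 and 2101 FPKM at 72 h (log2 change 1.68 ± 0.14 SE, adjusted p = 0.000128), both with overlapping annotated exons of a neighbour. Tfeb, the transcription factor that drives lysosomal genes, fell by 0.48 on the log2 scale with an adjusted p of 0.0104, and Atp6v1b2 (log2 change 0.2) and Gaa (0.08) did not pass.

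The other abundant rises were Lyz2, lysozyme of macrophages and neutrophils, Ftl1, ferritin light chain, and Eef1a1, an elongation factor of translation. Lyz2 had 373, 404 and 485 FPKM at 24 h and 3100.4, 2873 and 3902 FPKM at 72 h (log2 change 2.96 ± 0.16 SE, adjusted p = 3.82e-05). Ftl1 had 637, 734 and 1245 FPKM at 24 h and 3521, 3086 and 4202 FPKM at 72 h (log2 change 2.1 ± 0.26 SE, adjusted p = 0.00081). Eef1a1 had 894, 1038 and 1314 FPKM at 24 h and 2149.8, 2334 and 2541 FPKM at 72 h (log2 change 1.13 ± 0.17 SE, adjusted p = 0.00173).

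Antigen presentation and interferon genes were higher in nearly every member. All 11 MHC class II genes were tested and higher (100%, against 30.4% of all genes), though 8 of 11 after quantile normalization. Of the 11, 10 had a ratio over 2, the median was 1.25, and 2 passed the filter only through a 72 h mouse. H2-Aa, a class II chain, had 36.2, 50.7 and 37.7 FPKM at 24 h and 149, 131 and 160.5 FPKM at 72 h (log2 change 1.81 ± 0.15 SE, adjusted p = 0.000151). Cd74, the invariant chain, had 79.9, 111 and 95.5 FPKM at 24 h and 281, 238 and 276 FPKM at 72 h (log2 change 1.47 ± 0.14 SE, adjusted p = 0.00029). H2-Ab1, the most abundant, had 79.2, 112 and 99.2 FPKM at 24 h and 298, 248 and 290.0 FPKM at 72 h (log2 change 1.53 ± 0.15 SE, adjusted p = 0.00029), and Ifi30 and H2-Eb1 rose, with log2 changes of 1.88 and 1.69. The second mouse was the highest of the 24 h group and the lowest of the 72 h group for the 3 class II chains and Cd74. Of 24 interferon-stimulated genes 23 were higher (95.8%, against 30.4% of all genes), all 23 with a ratio over 2. The median was 1.23, and Oas2 did not pass (log2 change 0.69, adjusted p = 0.0577). Ifit3, an RNA-binding antiviral protein, had 8.27, 6.24 and 14.6 FPKM at 24 h and 33.7, 32.7 and 28.3 FPKM at 72 h (log2 change 1.68 ± 0.26 SE, adjusted p = 0.00213). Bst2, tetherin, had 51.8, 65.3 and 74.6 FPKM at 24 h and 213, 188 and 185 FPKM at 72 h (log2 change 1.61 ± 0.15 SE, adjusted p = 0.000221). Mx1 and Ifi44 rose, with log2 changes of 1.65 and 1.64 and Oas1a rose, at one of 1.6. The third mouse was the highest of the 24 h group and the first the highest of the 72 h group in all 5 of these genes.

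In 20 of the 21 tested neutrophil genes and 19 of the 30 tested chemokine and cytokine genes the third 24 h mouse was the highest of the 6. The summed level of the neutrophil list was 516, 213 and 1740.4 FPKM at 24 h and 114, 128 and 119 FPKM at 72 h, against 35.7 FPKM in the control group. Of 25 genes 21 were tested, 5 of which passed only through a 24 h mouse, and 3 were lower (14.3%, against 13.8% of all genes), 1 was higher and 17 did not pass. Without the second 24 h mouse 8 were lower, among them S100a9, S100a8, Retnlg and Cxcr2, with adjusted p of 0.00757, 0.00875, 0.0162 and 0.0255, and without the third 24 h mouse 3 were lower and 3 higher. The alarmins S100a8 and S100a9 are the most abundant proteins of neutrophil cytoplasm. S100a9 had 156, 28.9 and 721 FPKM at 24 h and 32.9, 38.5 and 38 FPKM at 72 h (log2 change -2.01 ± 0.98 SE, adjusted p = 0.137). S100a8 had 35.8, 7.59 and 161 FPKM at 24 h and 7.37, 9.82 and 9.37 FPKM at 72 h (log2 change -1.92 ± 0.91 SE, adjusted p = 0.125). In both the third 24 h mouse was more than 4 times the first, and the second lay at or below the level of the 72 h mice. Cxcr2, the neutrophil chemokine receptor, had 8.33, 2.57 and 42.3 FPKM at 24 h and 2.57, 3.6 and 3.46 FPKM at 72 h (adjusted p = 0.176). Csf3r, the receptor for granulocyte colony-stimulating factor, had 7.22, 3.43 and 28.3 FPKM at 24 h and 6.69, 7.07 and 9.27 FPKM at 72 h (adjusted p = 0.765), and Retnlg, a resistin-like granule protein, had a log2 change of -1.65 (adjusted p = 0.116). Lcn2 fell, and so did Lrg1, a leucine-rich acute phase protein, with 42, 22.2 and 65.7 FPKM at 24 h and 9.98, 8.97 and 8.09 FPKM at 72 h (log2 change -2.02 ± 0.34 SE, adjusted p = 0.00304), and G0s2, an inhibitor of lipolysis, at a log2 change of -1.0. Padi4, which citrullinates histones, was the 1 that rose, at a log2 change of 1.12. Lcn2 and Lrg1 are also made by cells other than neutrophils.

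Of 33 chemokine and cytokine genes 30 were tested, 8 were higher (26.7%, against 30.4% of all genes) and none lower, and 8 higher and 3 lower after median-of-ratios scaling. The neutrophil attractants Cxcl2 and Cxcl3 again had the third 24 h mouse on top. Cxcl3 had 17.9, 1.19 and 156 FPKM at 24 h and 0.668, 1.71 and 1.13 FPKM at 72 h (log2 change -3.13 ± 1.32 SE, adjusted p = 0.0923). Cxcl2 had 13.8, 2.33 and 174 FPKM at 24 h and 2.79, 2.88 and 1.93 FPKM at 72 h (log2 change -2.55 ± 1.24 SE, adjusted p = 0.133). Il1b, interleukin 1 beta, had 7.68, 4.31 and 103 FPKM at 24 h and 7.12, 12.4 and 9.72 FPKM at 72 h (log2 change -0.68 ± 1.00 SE, adjusted p = 0.608). For all 3 the 24 h and 72 h groups overlapped. The rises were Ccl8, described above, 6 other chemokines of monocytes and lymphocytes, and the alarmin Il33. Cxcl16, a scavenger receptor and chemokine, had 17.1, 22.7 and 24.7 FPKM at 24 h and 167, 149.8 and 201 FPKM at 72 h (log2 change 2.95 ± 0.17 SE, adjusted p = 3.87e-05). Cxcl10, an interferon-induced chemokine, had 0.984, 0.754 and 6.49 FPKM at 24 h and 11.2, 14.1 and 10.4 FPKM at 72 h (log2 change 2.11 ± 0.51 SE, adjusted p = 0.0132), and Il33, Ccl12, Cxcl9, Ccl5 and Cx3cl1 rose, with log2 changes of 1.99, 1.33, 1.3, 1.22 and 1.0. Cxcl12, the stromal chemokine and the most abundant of the list, had 276, 416 and 353 FPKM at 24 h and 243, 318 and 264 FPKM at 72 h (log2 change -0.33 ± 0.18 SE, adjusted p = 0.17). Without the third 24 h mouse 14 genes of this list were higher and 1, the neutrophil attractant Cxcl1, was lower. Without that mouse Il1b had a log2 change of 0.63 in place of -0.68 (adjusted p = 0.0653), and S100a9 one of -0.87 (adjusted p = 0.224). The third 24 h mouse also had the lowest estimated depth, whose part in these values was not tested.

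Of 15 tested genes of monocytes and early macrophages 4 were higher (26.7%, against 30.4% of all genes) and 1 lower. Without the third 24 h mouse 9 were higher and none lower, without the second 72 h mouse 2 and none, and without the second 24 h mouse 3 and 2. Fn1, fibronectin, had 88.3, 77.4 and 239 FPKM at 24 h and 435, 665 and 452 FPKM at 72 h (log2 change 2.1 ± 0.41 SE, adjusted p = 0.00568). Plac8, of inflammatory monocytes, had 6.81, 3.46 and 10.4 FPKM at 24 h and 21.6, 20.6 and 22.3 FPKM at 72 h (log2 change 1.61 ± 0.30 SE, adjusted p = 0.00481). Ccr2, the receptor that calls monocytes out of the marrow, had 12.1, 15.4 and 27.4 FPKM at 24 h and 34.8, 45.1 and 35.4 FPKM at 72 h (log2 change 1.1 ± 0.27 SE, adjusted p = 0.0147). Clec4d, a lectin receptor, had 6.29, 2.44 and 25.9 FPKM at 24 h and 15.2, 16.6 and 21.1 FPKM at 72 h (adjusted p = 0.219). F10, coagulation factor X, had 7.8, 3.46 and 39 FPKM at 24 h and 4.24, 6.41 and 4.24 FPKM at 72 h (adjusted p = 0.292), and in both the third 24 h mouse was the highest of all 6.

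**Figure D3:**
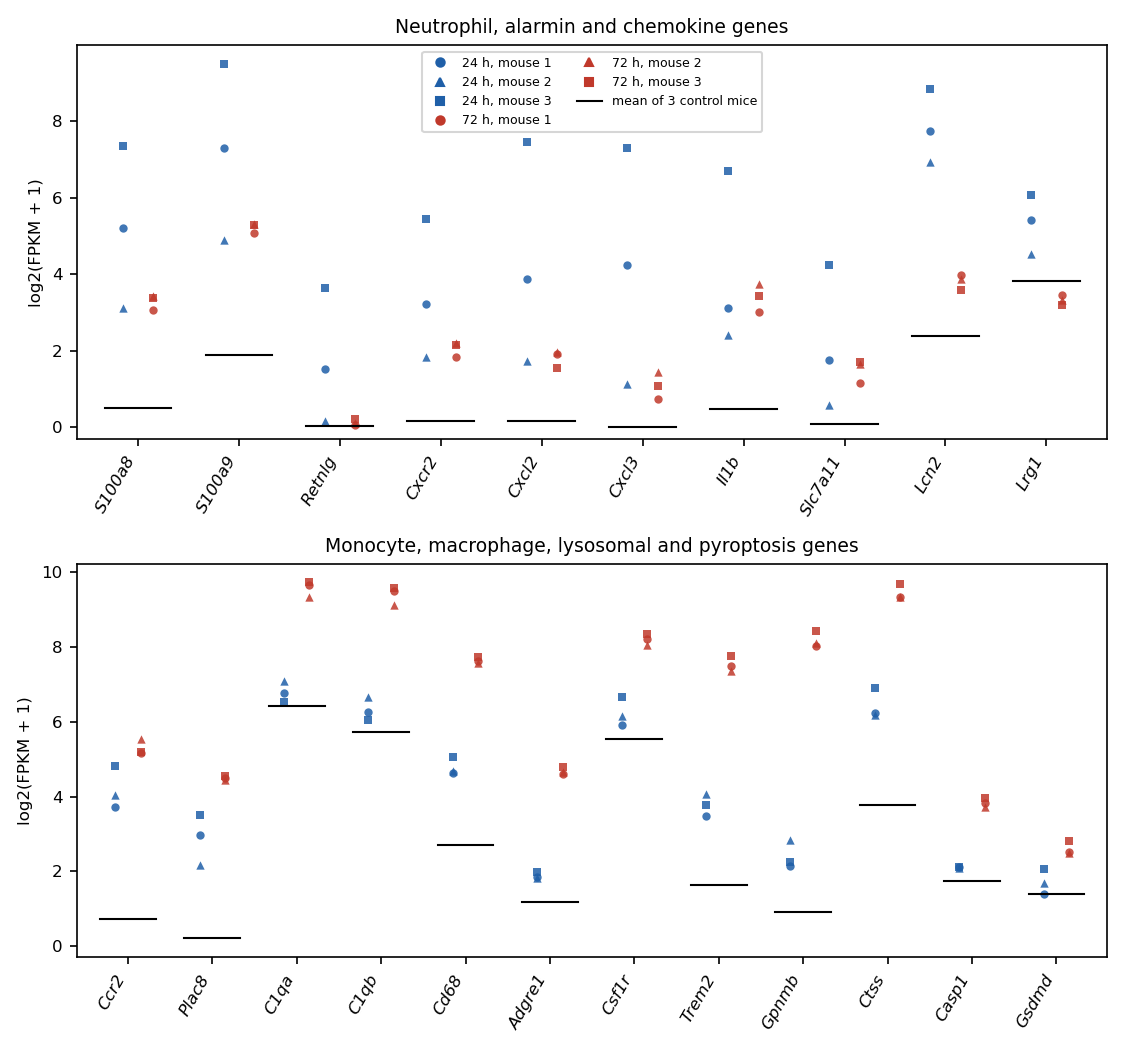
Points are log2(FPKM + 1) of single mice, blue at 24 h and red at 72 h, with a marker shape for each mouse and black bars for the mean of the 3 control mice. In the top panel, of neutrophil, alarmin and chemokine genes, the third 24 h mouse (blue squares) is the highest of all 6 for every gene, while the 72 h mice lie close together. In the bottom panel, of monocyte, macrophage, lysosomal and pyroptosis genes, all 3 mice at 72 h lie above all 3 at 24 h for each gene. Only genes called higher are drawn in that panel. Members of these lists that did not pass, among them Clec4d, F10 and Nlrp3, are left out.

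Genes of pyroptosis, the lytic cell death by gasdermin pores that the study is about, were higher in 12 of 19 and lower in none. The share of rises was 63.2%, against 30.4% of all genes, and 10 of the 12 had a ratio over 2. The median was 0.83. Casp1, the inflammatory caspase that cuts gasdermin D and interleukin 1 beta, had 3.33, 3.29 and 3.36 FPKM at 24 h and 13.3, 12.3 and 14.5 FPKM at 72 h (log2 change 1.73 ± 0.10 SE, adjusted p = 4.2e-05). The 3 mice at 24 h were nearly equal, and all 3 at 72 h lay far above them. Gsdmd, gasdermin D, which forms the pore, had 1.61, 2.2 and 3.2 FPKM at 24 h and 4.74, 4.57 and 6.08 FPKM at 72 h (log2 change 0.9 ± 0.19 SE, adjusted p = 0.00795). Its control level was 1.64 ± 0.0827 FPKM, so that the first 24 h mouse was at the control level. Pycard, the adaptor ASC, had 7.89, 9.02 and 16.9 FPKM at 24 h and 25, 25.2 and 26.9 FPKM at 72 h (log2 change 1.19 ± 0.25 SE, adjusted p = 0.00698). Il18, a cytokine released through the pore, had 0.498, 0.661 and 0.875 FPKM at 24 h and 2.87, 2.39 and 2.99 FPKM at 72 h (log2 change 1.16 ± 0.13 SE, adjusted p = 0.000542). The sensors Nlrp1b, Aim2 and Naip5 rose, with log2 changes of 1.12, 1.03 and 1.07. Nlrp3, the sensor of the best known inflammasome, did not pass, with 1.51, 1.08 and 9.25 FPKM at 24 h and 1.99, 2.51 and 2.44 FPKM at 72 h (adjusted p = 0.801), where the third 24 h mouse was the highest. The others that did not pass were Ninj1 (log2 change 0.32), which ruptures the membrane and is the most abundant of the list, Pstpip1 (0.94), Mefv (0.56), Nek7 (-0.33), Dfna5 (0.19) and Il1b. Without the third 24 h mouse 17 of the 19 were higher, Nlrp3 among them at 0.53 (adjusted p = 0.0137), whereas 8 were higher without the first 24 h, the second 24 h or the third 72 h mouse, and 9 were higher and 1 lower after quantile normalization. Of the 19, 4 passed the filter only through a 72 h mouse, all 4 called higher, a route on which 77.5% of all genes were higher. The other 15 reached 1 FPKM at both times, and 8 of them were higher (53.3%, against 28.1% of all such genes). Macrophage markers moved with these genes, 16 of 20 of their list being higher and the summed level going from 696 to 784 FPKM at 24 h to 3069 to 3763 FPKM at 72 h, and their part in the rise was not tested.

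Genes of the cardiomyocyte fell. Tnnt2, a defining marker of heart muscle, was the most abundant of all genes in each of the 6 mice. Actc1, another such marker, did not pass the test. Of 20 sarcomere genes 17 were lower (85%, against 13.8% of all genes) and none higher, 6 with a ratio over 2, with a median of -0.84. Their summed level was 59855, 60918 and 47842 FPKM at 24 h and 34319, 26442 and 27617 FPKM at 72 h, from a control mean of 78557 FPKM. Tnnt2 (chr1:135836354-135852260), cardiac troponin T, had 21262, 20392 and 18799 FPKM at 24 h and 11982, 10127 and 9942 FPKM at 72 h (log2 change -0.92 ± 0.15 SE, adjusted p = 0.00292). Quantile normalization gives the most abundant gene of each mouse the same value by construction, so Tnnt2 has no change there. Tnnt2 also lost its call in the limma fit with no filter on low values (log2 change -0.92, adjusted p = 0.17). Tcap, the titin cap, had 1201, 1437 and 1032 FPKM at 24 h and 515, 309 and 389 FPKM at 72 h (log2 change -1.61 ± 0.21 SE, adjusted p = 0.00101), and the ventricular light chains Myl3 and Myl2 had log2 changes of -1.35 and -1.12. Actn2, the actinin of the Z-disc, and Myom2, of the M-band, fell, with log2 changes of -1.24 and -1.18. Those that did not pass were Actc1, cardiac actin (log2 change -0.53, adjusted p = 0.146), Mybpc3 (-0.21) and Nebl (-0.03).

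Slc2a4, Cs, Atp2a2, Tnnt2 and Pdk2 are the cardiomyocyte markers of the study. Atp2a2, the calcium pump of the sarcoplasmic reticulum, had 3270.2, 2441 and 1938 FPKM at 24 h and 1513, 1284 and 1244 FPKM at 72 h (log2 change -0.89 ± 0.20 SE, adjusted p = 0.0104). Cs, citrate synthase, had 508, 429.8 and 369.8 FPKM at 24 h and 264, 208 and 216 FPKM at 72 h (log2 change -0.92 ± 0.15 SE, adjusted p = 0.00294). Slc2a4, the insulin-dependent glucose transporter, had 84.6, 86.5 and 46 FPKM at 24 h and 47.3, 33.1 and 39.5 FPKM at 72 h (log2 change -0.8 ± 0.26 SE, adjusted p = 0.0382), with the third 24 h mouse just below the first 72 h mouse, and its adjusted p reached 0.129 when 1 mouse was left out. Pdk2, a kinase that inhibits pyruvate dehydrogenase, had 87.2, 70.3 and 54.4 FPKM at 24 h and 42.4, 27.3 and 31.4 FPKM at 72 h (log2 change -1.04 ± 0.21 SE, adjusted p = 0.0067). Wipi1, an autophagy protein, had 15.4, 12.2 and 13.3 FPKM at 24 h and 11.9, 11.9 and 11.2 FPKM at 72 h (log2 change -0.2 ± 0.11 SE, adjusted p = 0.189), and its groups lay close together without overlap. Calcium handling and ion channel genes were lower in 13 of 19 (68.4%, against 13.8% of all genes) and higher in none, with a median of -0.74. Hrc, Kcnj11 and Jph2, of calcium storage, the ATP-gated potassium channel and the junction of membrane and reticulum, fell, with log2 changes of -1.01, -0.98 and -0.94. Kcnip2 (log2 change -0.63), Ryr2 (-0.51), Casq2 (-0.39), Asph (-0.07), Kcnd2 (-0.01) and Slc8a1 (0.05) did not pass, with adjusted p from 0.0636 to 0.966.

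Stretch-response genes fell much further than the sarcomere. Of 18 genes of natriuretic peptides, fetal isoforms and stretch response 15 were lower (83.3%, against 13.8% of all genes) and none higher. Of the falls 12 had a ratio over 2, and the median of the 18 genes was -1.42. Their summed level was 17340.2, 21547 and 19385 FPKM at 24 h and 8021, 8413 and 8299.8 FPKM at 72 h, with 7397 FPKM in the control group. Beside Ankrd2, Flnc, the filamin of the Z-disc, had 769, 852 and 1076 FPKM at 24 h and 200.4, 239 and 198 FPKM at 72 h (log2 change -2.07 ± 0.16 SE, adjusted p = 9.24e-05), at a control level of 211 ± 16.2 FPKM. Fhl1, a LIM protein of the stretch sensor, had 479, 715 and 549 FPKM at 24 h and 127, 183 and 137 FPKM at 72 h (log2 change -1.95 ± 0.19 SE, adjusted p = 0.000304). Cryab, the small heat shock protein of desmin and titin, had 2932, 3984 and 3377 FPKM at 24 h and 1122, 1042 and 945 FPKM at 72 h (log2 change -1.72 ± 0.15 SE, adjusted p = 0.00018). Csrp3, muscle LIM protein, had 3128, 4354 and 3029 FPKM at 24 h and 1330.0, 1222 and 1207 FPKM at 72 h (log2 change -1.46 ± 0.17 SE, adjusted p = 0.000557). Ankrd1, the cardiac ankyrin repeat protein, had 3674, 3667 and 5089.8 FPKM at 24 h and 1352, 1678 and 1632 FPKM at 72 h (log2 change -1.4 ± 0.18 SE, adjusted p = 0.000844). In all 5 the groups lay apart, and at 72 h Fhl1 and Ankrd1 were still well above their control means of 60.5 and 688 FPKM. Myh7, the slow myosin that the fetal heart uses, had 300.1, 260.0 and 149 FPKM at 24 h and 58.8, 70.8 and 68.6 FPKM at 72 h (log2 change -1.77 ± 0.25 SE, adjusted p = 0.00139), with an overlapping antisense RNA, Mhrt. The natriuretic peptides parted. Nppb had 343, 411 and 467 FPKM at 24 h and 214, 274 and 234 FPKM at 72 h (log2 change -0.75 ± 0.15 SE, adjusted p = 0.0064), whereas Nppa had 1563, 2273 and 1548 FPKM at 24 h and 1614, 1743 and 2021 FPKM at 72 h (log2 change 0.02 ± 0.19 SE, adjusted p = 0.952), in each mouse over 4 times its control mean of 343 FPKM. Acta1 (log2 change -0.44) and Rcan1 (-0.31) did not pass either.

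The machinery of fuel use fell almost without exception. Of 27 genes of fatty acid uptake and oxidation 25 were lower (92.6%, against 13.8% of all genes) and none higher. Of the falls 13 had a ratio over 2, and the median of the list was -0.95. Fabp3, the heart fatty acid carrier and the most abundant, had 6751, 5058 and 4426 FPKM at 24 h and 3239, 2572 and 2589.6 FPKM at 72 h (log2 change -0.94 ± 0.19 SE, adjusted p = 0.00698). Acaa2, the thiolase of the last step, had 119, 88.3 and 93.1 FPKM at 24 h and 52.2, 38 and 37.8 FPKM at 72 h (log2 change -1.22 ± 0.17 SE, adjusted p = 0.00138), and Eci1 and Acadvl, of earlier steps, fell, with log2 changes of -1.16 and -1.14. Pdk4, a fasting-induced kinase that spares glucose, had 246, 96.9 and 465 FPKM at 24 h and 61.5, 53.8 and 55.3 FPKM at 72 h (log2 change -1.96 ± 0.49 SE, adjusted p = 0.0154), with the third 24 h mouse highest, and Ucp3, a mitochondrial carrier, fell, at a log2 change of -1.62. Slc27a1 (log2 change -0.29) and Cpt1a (0.26), the liver-type form of the carnitine transferase, did not pass. All 80 respiratory chain subunits were tested, of which 75 were lower (93.8%, against 13.8% of all genes) and 1 higher (1.25%, against 30.4%). Of the falls 11 had a ratio over 2, and the median of the list was -0.81. The subunits with the largest falls, Cox7a1, Cox8b and Cox6a2, are the muscle forms of cytochrome oxidase. Cox7a1 had 1287, 1194 and 872 FPKM at 24 h and 506, 301 and 319 FPKM at 72 h (log2 change -1.59 ± 0.24 SE, adjusted p = 0.00174), and Cox8b and Cox6a2 fell, with log2 changes of -1.34 and -1.31. Atp5k of the ATP synthase fell, at a log2 change of -1.19, and Cox6c, the most abundant, at one of -1.07. The form of one of these subunits that other tissues use, Cox6a1, was the 1 that rose, with 427, 546 and 454 FPKM at 24 h and 637, 617 and 604 FPKM at 72 h (log2 change 0.39 ± 0.12 SE, adjusted p = 0.0387). Its call was lost in 9 of the 16 other fits, with an adjusted p of 0.216 after median-of-ratios scaling, 0.054 with a replicate block and up to 0.106 when 1 mouse was left out. Cox8a, the common form of Cox8b, had a log2 change of 0.09 (adjusted p = 0.639). Slc25a4, the ADP/ATP carrier of heart and 1 of the 5 most abundant genes that fell with a ratio over 2, had 5028, 4255 and 3669 FPKM at 24 h and 2295, 1715 and 1744 FPKM at 72 h (log2 change -1.17 ± 0.18 SE, adjusted p = 0.00196). Atp5sl (log2 change -0.33), Atp5g2 (-0.29) and Ndufa4l2 (0.1) did not pass.

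Of 28 glycolysis and hypoxia-inducible genes 2 were higher (7.14%, against 30.4% of all genes) and 11 lower (39.3%, against 13.8%), with a median of -0.48. After median-of-ratios scaling 19 were lower, and 7 were lower without the second or the third 72 h mouse. Hk3, the hexokinase of myeloid cells, had 3.39, 2.51 and 6.75 FPKM at 24 h and 16.2, 15.8 and 17.2 FPKM at 72 h (log2 change 1.82 ± 0.27 SE, adjusted p = 0.00167), while the prolyl hydroxylase Egln3, the monocarboxylate transporter Slc16a1 and the mitophagy receptor Bnip3 fell, with log2 changes of -1.24, -1.23 and -1.11. Slc2a1, the basal glucose transporter, had 27.7, 18.5 and 80.8 FPKM at 24 h and 13.2, 16.6 and 11.7 FPKM at 72 h (log2 change -1.28 ± 0.47 SE, adjusted p = 0.0613), with the third 24 h mouse far above the rest. Gapdh, the most abundant, had a log2 change of -0.36 with an adjusted p of 0.0501. Cytosolic ribosomal proteins were higher in 40 of 82 (48.8%, against 30.4% of all genes) and lower in 1, with a median of 0.36. This depended on the scaling, with 8 higher and 3 lower after median-of-ratios scaling and 50 and 1 after quantile normalization. It depended on single mice as well, with 15 higher when mouse 1 at 24 h was left out and 12, 22 and 5 for mice 1, 2 and 3 at 72 h. The 1 that fell was Rpl3l, the form of heart and skeletal muscle, with 402, 374 and 243 FPKM at 24 h and 216, 135 and 121 FPKM at 72 h (log2 change -1.12 ± 0.27 SE, adjusted p = 0.0123). Rps12, which rose most, had 613, 862 and 756 FPKM at 24 h and 1214, 1138 and 1449.8 FPKM at 72 h (log2 change 0.77 ± 0.16 SE, adjusted p = 0.00777). Rps2, listed as the most abundant, had a log2 change of -0.03 (adjusted p = 0.865). Pseudogenes that resemble ribosomal protein genes can take part of their reads.

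Genes of metal, heat and hormone response held more falls than rises. The metallothioneins Mt1 and Mt2, which bind zinc and copper and are induced by metals and glucocorticoids, were among the largest falls. Mt2 had 911, 578 and 1983 FPKM at 24 h and 112, 112 and 94.4 FPKM at 72 h (log2 change -3.25 ± 0.40 SE, adjusted p = 0.000778). Mt1 had 1143, 810.1 and 1722 FPKM at 24 h and 214, 189 and 204 FPKM at 72 h (log2 change -2.52 ± 0.25 SE, adjusted p = 0.000314). The third 24 h mouse was the highest and the second the lowest in both, and the 72 h mice lay close to each other, above the control mean of 35.7 FPKM for Mt2 and below that of 278 FPKM for Mt1. Slc30a1, the zinc exporter under the same metal-sensing factor, fell, at a log2 change of -0.42 (adjusted p = 0.0179). The metal response element takes the forms TGCGCNC and TGCACNC. The RefSeq window of 160 bases before the start site of Mt2 on GRCm38.p6, shown because Mt2 fell most of the 3, has both, in capitals on either strand.
Mt2, chr8:94172458-94172617, plus strand: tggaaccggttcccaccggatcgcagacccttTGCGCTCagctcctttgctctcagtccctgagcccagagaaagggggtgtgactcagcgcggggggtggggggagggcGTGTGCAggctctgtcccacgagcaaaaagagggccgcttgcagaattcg
Over 250 bases TGCACNC was in all 3 promoters of the list, against 10.4% of all promoters, and TGCGCNC in 1 of them (33.3% against 12.5%).

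Of 17 heat shock genes 6 were lower (35.3%, against 13.8% of all genes) and 1 higher, and 10 lower and none higher after median-of-ratios scaling. Without the third 72 h mouse 4 were lower. Hspb1, the small heat shock protein HSP27, had 2896, 3273 and 4274 FPKM at 24 h and 657, 815 and 729 FPKM at 72 h (log2 change -2.23 ± 0.17 SE, adjusted p = 0.000106), at a control level of 651 ± 51.8 FPKM, and Hspa1a, an inducible HSP70, had 14.9, 8.03 and 35.7 FPKM at 24 h and 6.07, 5.62 and 5.36 FPKM at 72 h (log2 change -1.38 ± 0.44 SE, adjusted p = 0.0386, and an adjusted p of up to 0.103 when 1 mouse was left out). Hspa1b, its near-identical copy that shares reads with it, had an adjusted p of 0.0801. Hspa1l and the co-chaperone Bag3 fell, with log2 changes of -0.81 and -0.77. Of 17 glucocorticoid-responsive genes 8 were lower (47.1%, against 13.8% of all genes) and none higher, with a median of -0.67. Zbtb16, a transcription factor strongly induced by glucocorticoids, had 17, 9.23 and 10.2 FPKM at 24 h and 1.95, 1.28 and 1.75 FPKM at 72 h (log2 change -2.27 ± 0.22 SE, adjusted p = 0.000285), and Sult1a1, Per1, Map3k6 and Klf15 fell, with log2 changes of -1.75, -1.6, -1.51 and -1.35. Tsc22d3, the leucine zipper protein GILZ and the most abundant, had 128, 107 and 75.5 FPKM at 24 h and 65.1, 45.6 and 61.4 FPKM at 72 h (log2 change -0.82 ± 0.22 SE, adjusted p = 0.0186). The other 9 of the list, Fkbp5 (log2 change -0.67, adjusted p = 0.128) among them, did not pass.

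Integrated stress response and immediate early genes held no common direction. Of 18 tested stress response genes 3 were higher (16.7%, against 30.4% of all genes) and 2 lower (11.1%, against 13.8%). Without the third 24 h mouse 6 were higher and 2 lower. Nupr1 rose, at a log2 change of 1.15 and Ddit3, the factor CHOP, fell from 24, 25.9 and 41.5 to 16.8, 16.4 and 16.4 FPKM (log2 change -0.8 ± 0.20 SE, adjusted p = 0.0139), while Atf4, the central factor and the most abundant, had a log2 change of -0.36 (adjusted p = 0.236). Slc7a11, the cystine transporter, had 2.36, 0.497 and 18 FPKM at 24 h and 1.23, 2.17 and 2.27 FPKM at 72 h (adjusted p = 0.524), the third 24 h mouse again on top. Of 21 immediate early genes 2 were higher (9.52%, against 30.4%) and 6 lower (28.6%, against 13.8%), and 7 and 8 without that mouse. Without the second 72 h mouse none was higher and 3 were lower, and without the third 72 h mouse 1 and 3. Ier3 had 74, 74.8 and 178 FPKM at 24 h and 30.7, 36.8 and 33 FPKM at 72 h (log2 change -1.55 ± 0.32 SE, adjusted p = 0.00723), Maff fell, at a log2 change of -0.94, and Egr2 rose, at a log2 change of 1.04, with adjusted p of up to 0.0846 and 0.0509 when 1 mouse was left out. Jund had 1.47, 1.4 and 1.5 FPKM at 24 h and 1.2, 1.19 and 73.7 FPKM at 72 h (adjusted p = 0.351), with the third 72 h mouse apart from the other 5. Among mice of the control, 10 min, 1 h and 6 h groups it was likewise either between 0.576 and 1.49 FPKM or between 40.6 and 94.8 FPKM, so that its values here cannot be taken for levels of the gene. Klf6, the most abundant, had a log2 change of -0.08.

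The circadian clock is a loop in which an activating arm turns on its own repressors over the day, and its genes split by arm. Of 16 genes 10 were lower (62.5%, against 13.8% of all genes) and 3 higher (18.8%, against 30.4%), 12 of these with a ratio over 2. The 3 that rose, Arntl (BMAL1), Npas2 and Clock, encode the activating arm. Arntl had 1.33, 0.604 and 2.25 FPKM at 24 h and 10.8, 10.3 and 9.2 FPKM at 72 h (log2 change 2.27 ± 0.24 SE, adjusted p = 0.000392), and Npas2 and Clock rose, with log2 changes of 1.01 and 0.53. Clock lost its call after median-of-ratios scaling (adjusted p = 0.0581) and in 3 of the 6 fits that left out 1 mouse (up to 0.0656). All 3 mice at 72 h were above all 3 at 24 h for each. Those that fell encode the repressing arm and the output factors. Per2, a repressor, had 10.9, 10.9 and 8.35 FPKM at 24 h and 0.834, 0.614 and 1.06 FPKM at 72 h (log2 change -2.59 ± 0.15 SE, adjusted p = 3.87e-05). Dbp, an output transcription factor whose exons overlap Sphk2, had 23.3, 50.8 and 17.6 FPKM at 24 h and 3.78, 2.74 and 3.52 FPKM at 72 h (log2 change -2.73 ± 0.35 SE, adjusted p = 0.000904), and its relative Tef had 40.1, 44.7 and 29.9 FPKM at 24 h and 8.7, 8.19 and 10.1 FPKM at 72 h (log2 change -1.96 ± 0.16 SE, adjusted p = 0.000134). Per3, Hlf, Cry2, Per1, Ciart, Nr1d2 and Cry1 fell as well, with log2 changes of -1.81, -1.63, -1.61, -1.6, -1.57, -1.28 and -0.94. At 24 h Per1 and Per2 lay around or just below their control means of 15.2 and 12.5 FPKM, and at 72 h every mouse was below. Nr1d1, REV-ERB alpha, had 26.2, 43.3 and 49.5 FPKM at 24 h and 28.9, 20.02 and 26.1 FPKM at 72 h (log2 change -0.61 ± 0.24 SE, adjusted p = 0.0783), with exons that overlap Thra, and Bhlhe40 (log2 change -0.28) and Bhlhe41 (-0.2) did not pass either. The time of day at which tissue was taken is not given in the sources used here, and its part in these values was not tested.

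**Figure D4:**
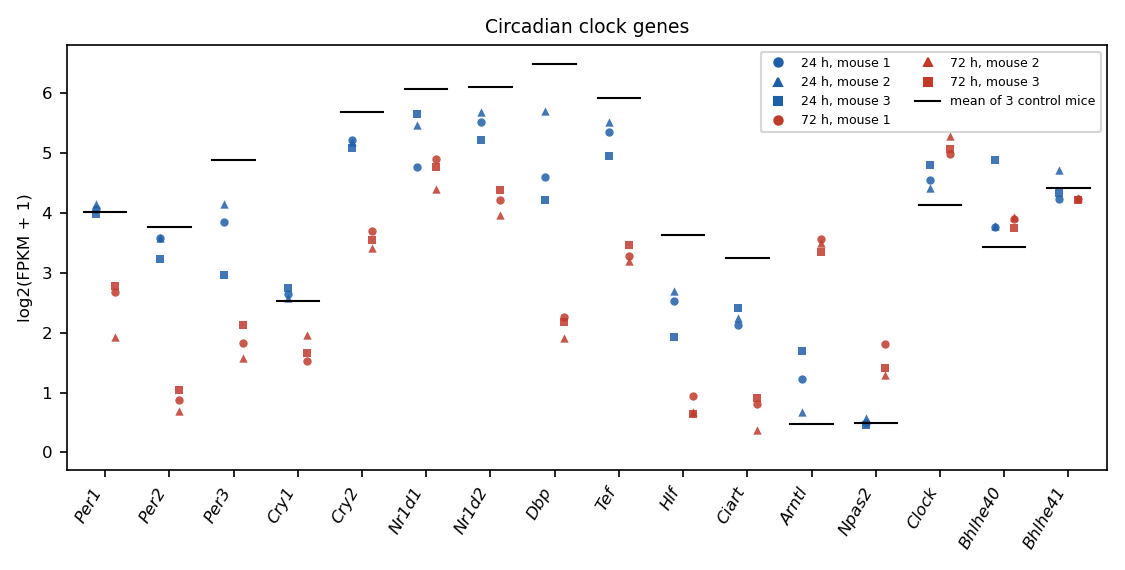
Points are log2(FPKM + 1) of single mice for the 16 clock genes, blue at 24 h and red at 72 h, with a marker shape for each mouse and black bars for the mean of the 3 control mice. From Per1 to Ciart the red points lie below the blue ones except for Nr1d1, where they overlap, and for Arntl, Npas2 and Clock they lie above.

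Markers of other cells in the ventricle were mixed or scarce. Of 22 endothelial and angiogenesis genes 3 were higher (13.6%, against 30.4% of all genes) and 6 lower (27.3%, against 13.8%). The lower count was 8 after median-of-ratios scaling and also when mouse 1 at 24 h was left out, 3 when mouse 2 at 24 h, mouse 1 at 72 h or mouse 2 at 72 h was, and 2 for mouse 3 at 72 h. The defining markers did not pass the test. Pecam1 had 189, 192 and 249 FPKM at 24 h and 177, 227 and 179 FPKM at 72 h (log2 change -0.11 ± 0.16 SE, adjusted p = 0.593), and Cdh5 and Kdr had log2 changes of -0.11 and -0.19. Aplnr, the apelin receptor, had 4.03, 9.45 and 3.34 FPKM at 24 h and 23.1, 32.6 and 25.1 FPKM at 72 h (log2 change 2.18 ± 0.32 SE, adjusted p = 0.00169), Plvap, of fenestrated capillaries, rose, at a log2 change of 1.75, and Flt1, the decoy receptor for VEGF, had 60.8, 59.8 and 58.9 FPKM at 24 h and 22.8, 27.9 and 18.3 FPKM at 72 h (log2 change -1.36 ± 0.15 SE, adjusted p = 0.00048). Sox17, a factor of arterial endothelium, fell, at a log2 change of -0.86, and Ptprb, the most abundant, at one of -0.63. Of 9 smooth muscle and pericyte markers 3 were lower (33.3%, against 13.8% of all genes), and 5 after median-of-ratios scaling. The 3 were Des, which cardiomyocytes also express (log2 change -1.04), Abcc9 (-0.81) and Kcnj8 (-0.72). Abcc9 had an adjusted p of up to 0.0885 when 1 mouse was left out. Of 8 mesothelial and epicardial markers 7 were higher (87.5%, against 30.4% of all genes), and 3 of the 8 passed the filter only through a 72 h mouse. Msln, mesothelin, had 7.57, 3.55 and 1.67 FPKM at 24 h and 43.1, 14.7 and 17.5 FPKM at 72 h (log2 change 2.31 ± 0.50 SE, adjusted p = 0.00851). Upk3b, uroplakin 3b, had 1.19, 0.77 and 0 FPKM at 24 h and 15.6, 2.76 and 3.89 FPKM at 72 h (log2 change 2.1 ± 0.55 SE, adjusted p = 0.0188), both led by the first 72 h mouse. Wt1, the epicardial factor, did not pass (log2 change 0.1, adjusted p = 0.599), and how much of the outer layer each piece of tissue held was not tested.

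Lymphocyte, dendritic, mast and fat cell markers were at low level in all 6 mice. Of the tested T cell, NK, dendritic and mast cell markers, 2 of each passed the filter only through a 72 h mouse, as did 1 B cell marker. On that route 77.5% of all genes were higher, against 30.4% of all genes tested. Counts of so few members cannot show whether these cells rose. Only 4 of 14 T cell markers were tested and 2 were higher. Cd4 had 0.323, 0.504 and 0.258 FPKM at 24 h and 1.56, 1.7 and 1.9 FPKM at 72 h (log2 change 1.0 ± 0.12 SE, adjusted p = 0.000778) and Lck rose, at a log2 change of 1.06, while the defining genes Cd3e and Cd3d stayed below 1 FPKM in every mouse. Of 3 tested B cell markers of 7, Fcer2a and Cd79b were higher with log2 changes of 0.99 and 0.83, and Ms4a1 stayed below 1. Of 3 tested NK and cytotoxic markers of 8, Gzma, Gzmb and Klrd1 were higher with log2 changes of 1.03, 0.94 and 0.48, the last 2 of which were not called after quantile normalization, with Ncr1 and Klrb1c below 1. Of 6 tested dendritic cell markers of 9, 4 were higher. Flt3, the growth factor receptor of dendritic precursors, had 1.69, 1.27 and 1.32 FPKM at 24 h and 3.41, 3.39 and 4.76 FPKM at 72 h (log2 change 0.99 ± 0.15 SE, adjusted p = 0.00171), and Cd209a, Ccr7 and Batf3 rose, with log2 changes of 0.8, 0.56 and 0.55, where Ccr7 lost its call in 9 of the 16 other fits and Batf3 after quantile normalization. None of 3 tested mast cell markers of 7 passed, none of 7 adipocyte markers reached 1 FPKM, and of 5 tested Schwann cell markers only Cnp rose, at a log2 change of 1.13, a gene that is not particular to those cells. Of 5 tested erythroid markers of 7, Hba-a2, an alpha globin that shares reads with Hba-a1, was lower at a log2 change of -0.92, with adjusted p of up to 0.15 when 1 mouse was left out.

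**Figure D5:**
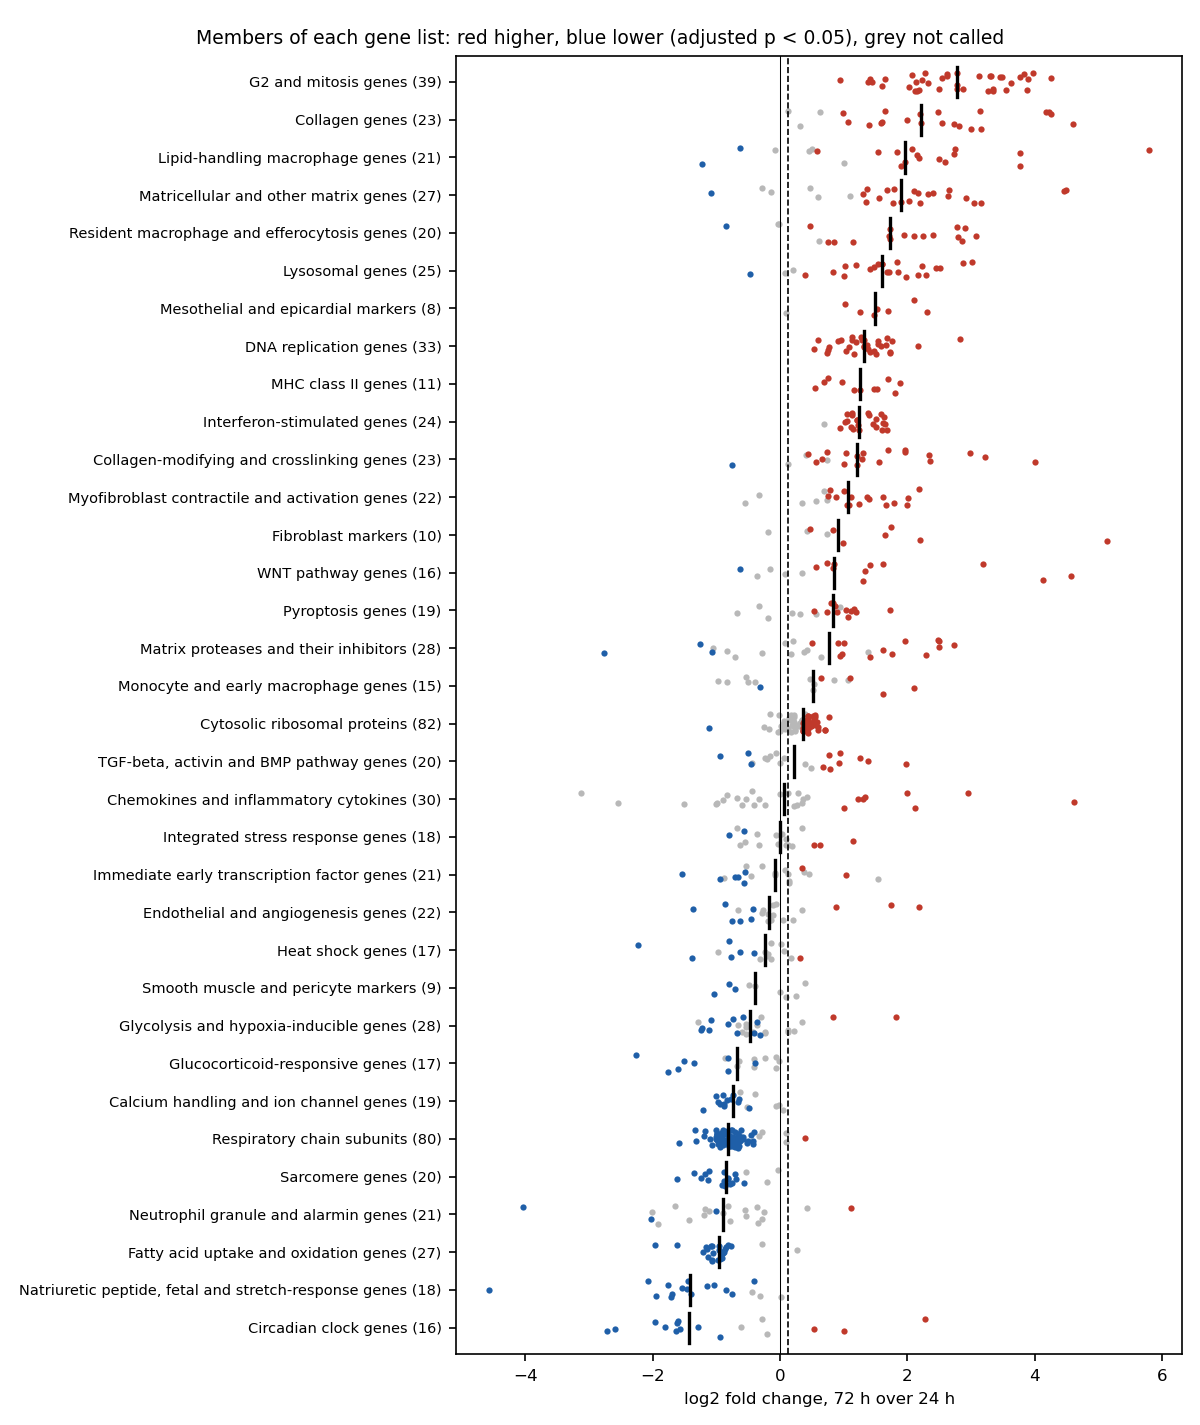
Each point is a tested member of a gene list with at least 8 tested members, placed by its log2 change from 24 h to 72 h, in red if higher and blue if lower with an adjusted p under 0.05 and in grey if not. Black bars are medians of the lists, the number of tested members stands in brackets, and the dashed line is the median of all genes at 0.13. The G2 and mitosis genes lie at the top with a median of 2.77 and the clock and stretch-response genes at the bottom, both with medians of -1.42.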

How the data were processed

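RNA of infarcted left ventricle from 3 mice at 24 h and 3 at 72 h was analysed out of 18 mice in 6 groups, grouped by the titles of the samples. The authors made poly(A) libraries, with the NEBNext Ultra RNA kit per the labels, and whether strand was used in counting is not given in the sources used here. Their processing notes name cutadapt 1.18, HISAT2 2.1.0, StringTie 1.3.4d, Cufflinks, Cuffdiff and the build mm10. The deposited values are FPKM per gene symbol and mouse. No read counts were used, so depth is unknown beyond the relative estimate given above, and no interval for counting error could be formed.

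FPKM of at least 1 in at least 1 of the 6 mice was required, and log2(FPKM + 1) was tested with limma 3.58.1 in R 4.3.3 (trend of the variance on expression, no covariate, Benjamini-Hochberg adjustment over 13028 genes, threshold 0.05). Data were simulated with the means and the spread of the 72 h mice in both groups. There 178 of 200 changed genes and 8 of 12828 unchanged ones were called. The wider spread at 24 h was not simulated, so these rates need not hold for the comparison itself. The table holds 25 symbols turned into dates, 19 of them tested. Positions come from GENCODE M21, which is on mm10, and promoters from RefSeq on GRCm38.p6. Python 3.11.15 was used for the rest.

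Named genes are the 15 largest rises and falls without overlap, the 4 largest changes and the most abundant member of each list and its members that did not pass, the markers of the study and the 5 most abundant called genes each way. Other list members were named after their values were seen, and a few genes under the rule are not reported here. The genes, lists and tests were chosen with earlier results of these data known. Alternatives were other scalings, filters, pseudocounts and variance models, a replicate block, all 18 mice and leaving out each mouse.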

Additional observations from a re-analysis of the deposited data

How the results depend on the processing

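Of the 299 genes given a value, 216 were called, and 185 of those kept their call under each of the 10 other fits and the 6 fits that left out 1 mouse. A call was lost in at least 1 fit by 29 genes, Abcc9, Axin2, Batf3, Ccr2, Ccr7, Clock, Cox6a1, Cxcl10, Egr2, Fabp3, Gzmb, Hba-a2, Hspa1a, Id2, Klrd1, Lyve1, Maff, Nppb, Padi4, Pdgfra, Pdk4, Prg4, Ptprb, Rpl3l, Slc2a4, Slc30a1, Tfeb, Tnnt2 and Tsc22d3. No called gene changed sign, against 30 uncalled ones. Scaling moved the counts most. Median-of-ratios scaling gave 2847 lower genes, and 771 with a ratio over 2, and quantile normalization gave 3373 and 955, with 1296 higher genes with a ratio over 2. When 1 mouse was left out, lower genes numbered 1044 to 2301, higher genes 2800 to 4820, and those with a ratio over 2 323 to 540 and 1749 to 2326. The low ends for lower genes, 1188 and 1044, came without the second and without the third 72 h mouse. Unadjusted p of limma under 0.05 with a ratio over 2 gave 2046 higher and 424 lower genes. These are the thresholds of the study's methods but not its test, which was run with Cufflinks against the control. No setting with a filter, a pseudocount or another variance model moved one of these counts by over 1.5 times. Deviations of same-numbered mice from their group means correlated at 0.319, -0.157 and 0.056, and those of differently numbered mice at -0.316 to 0.243. With so few mice per group these values cannot decide whether the replicate numbers pair the mice. A fit with the replicate number as a block gave 3800 higher and 1701 lower genes, 2021 and 408 with a ratio over 2. The uncalled genes changed sign as follows, on the log2 scale and with the cause not tested, after median-of-ratios scaling Col4a5 (-0.04785), Cox8a (-0.102), Gaa (-0.1045), Ndufa4l2 (-0.0854), Nppa (-0.172), P4ha2 (-0.0504), Slc8a1 (-0.1365), Wnt5b (-0.0463). The sign also changed after quantile normalization Actc1 (0.0743), Col4a5 (-0.110), Dfna5 (-0.1465), Gaa (-0.0539), Gapdh (0.0404), Mybpc3 (0.290), P4ha2 (-0.00455), Rps2 (0.547), Slc8a1 (-0.0251), Wnt5b (-0.290), Wt1 (-0.278). The sign also changed with the same FPKM sum in each mouse Asph (0.00912), Cd163 (0.0489), Kcnd2 (0.02475), Nebl (0.04375), Rps2 (0.0433), Timd4 (0.0176). The sign also changed with array quality weights Cd163 (0.0719), Cox8a (-0.0381), Csf3r (0.554), Il1b (0.346), Klf6 (0.02045), Nlrp3 (0.3695), Nppa (-0.0947), Slc7a11 (0.324), Slc8a1 (-0.118). Leaving out 1 mouse gave log2 fold changes on both sides of 0 for Asph from -0.222 to 0.0271, Bhlhe40 from -0.473 to 0.0910, Cd163 from -0.275 to 0.1605, Cdh5 from -0.284 to 0.00123, Cox8a from -0.00681 to 0.205, Csf3r from -0.851 to 0.511, Cyr61 from -0.576 to 0.102, Il1b from -1.52 to 0.633, Jund from -0.162 to 2.385, Kcnd2 from -0.152 to 0.1015, Klf6 from -0.191 to 0.104, Ndufa4l2 from -0.0926 to 0.255, Nebl from -0.180 to 0.254, Nlrp3 from -0.618 to 0.531, Nppa from -0.0786 to 0.198, Pecam1 from -0.228 to 0.0179, Rps2 from -0.125 to 0.0282, Slc7a11 from -1.49 to 0.345, Slc8a1 from -0.332 to 0.287, Thbs1 from -0.218 to 1.39, Timd4 from -0.219 to 0.135 and Wt1 from -0.0272 to 0.167. No read counts were given, so the depth behind a low FPKM is unknown.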

Other observations

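A few symbols were near 0 in some mice and high in others, and were picked after their values were seen. Hbb-b1, a beta globin, had 1396, 0.178 and 1613 FPKM at 24 h and 0.143, 0.213 and 0.233 FPKM at 72 h, while Hbb-bs, another symbol of the same locus, had 28.8, 853 and 51.3 FPKM at 24 h and 920.2, 605 and 883 FPKM at 72 h. In all 18 mice of the study one of these symbols was high where the other was low, and their sum lay between 606 and 2371 FPKM. Jund, a subunit of the AP-1 transcription factor, had 73.7 FPKM in the third 72 h mouse and between 1.19 and 1.5 FPKM in the other 5. The predicted gene Gm5643 had 128 FPKM in the second 72 h mouse and at most 0.438 FPKM in the others. Their cause was not tested.

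The third 24 h mouse was the highest of the 6 for 3 further symbols picked after their values were seen. Irg1, an enzyme of itaconate synthesis in activated macrophages, had 0.701, 0.414 and 20.3 FPKM at 24 h and 1.15, 0.817 and 1.15 FPKM at 72 h. Rab44, a large GTPase of granule-bearing cells, had 9.67, 1.94 and 61.3 FPKM at 24 h and 1.05, 0.936 and 0.72 FPKM at 72 h. The predicted gene Gm5483 had 11.6, 0.965 and 73.5 FPKM at 24 h and 0.601, 0.63 and 0.845 FPKM at 72 h.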
